A study of Mus musculus with 8 samples.

Results

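Cholesterol synthesis, uptake and export were examined through 30 genes of the SREBP2 pathway, of sterol transport within the cell and of sterol efflux, taken by symbol from the 41325 gene symbols listed in each library. All 30 were found, and 28 of them had an RPKM over 1 in all 8 libraries, the exceptions being *Lss* and *Abcg1*. RPKM gives reads scaled by the exon length of the gene and by the mapped reads of the library, so that levels can be compared between genes and between libraries. The cells were C3H10T1/2, a mouse mesenchymal stem cell (MSC) line of embryonic origin able to become fat cells under adipogenic hormones. A control line (shControl, genotype WT) and 3 stable lines carrying an shRNA from the pLKO.1 vector against *Kdm4d* (shKDM4D), *Nfib* (shNFIB) or *Mll1* (shMLL1) each gave 1 library at day 0 and 1 at day 5. Day 0 was 2 days after confluence and before induction. From then until day 2 the cells of all 4 lines received 10 µg/ml insulin, 1 µM dexamethasone and 0.5 mM isobutylmethylxanthine in medium with 10% FBS, then insulin with FBS for 2 days, then FBS alone. The knockdown lines were grown from puromycin-resistant clones, so that a clone and its knockdown cannot be told apart. Each line and day is 1 library with no replicate, so the change of a single line and the difference between lines were not tested. The change with day common to the 4 lines was tested, with each line as a pair of libraries. Of a single line a member is said below to have risen or fallen only where its RPKM ratio was past 2-fold, and the share of all genes past the same limit is given beside the first count of each comparison.

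Cells make cholesterol from acetyl-CoA through mevalonate, isoprenoid diphosphates, squalene and lanosterol, and take it up from lipoproteins. The transcription factor SREBP2, held in the endoplasmic reticulum by SCAP and the INSIG proteins while sterol is plentiful, is carried to the Golgi and cut when sterol is low, and then activates the genes of nearly every step of synthesis as well as its own gene and *Insig1*. The liver X receptors (LXR) do the reverse job: bound by oxysterols, they activate genes for the export of cholesterol and for the breakdown of lipoprotein receptors. Fat cells hold a large pool of free cholesterol, much of it at the lipid droplet.

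The 8 libraries held between 15800000 and 38200000 mapped reads as recovered from the RPKM values. *Nfib* had an RPKM of 2.31 and 3.38 in shNFIB cells against 9.92 and 17.0 in shControl cells, and *Kmt2a*, which encodes MLL1, had 2.00 and 1.63 in shMLL1 cells against 5.17 and 5.27. *Kdm4d* was at or under 0.235 in every library and could not check the label of the shKDM4D line at this depth. The summed RPKM of 7 adipocyte markers at day 5 was 777 in shControl cells, while the shKDM4D, shNFIB and shMLL1 lines had 38.6, 12 and 12.3, against 4.09 to 10.9 at day 0, and all 7 were above 0 in the 4 libraries of day 5, while between 1 and 3 of them were at 0 in those of day 0. The sum of 6 mesenchymal fibroblast markers lay between 2150 and 3570 in all 8 libraries, and no marker of macrophages, endothelium, epithelium, muscle or bone exceeded 1.64. *Thy1*, in that fibroblast list, was at 25.0 and 22.6 in shControl and 11.8 and 11.1 in shMLL1 cells, but between 0.0171 and 0.139 in the shKDM4D and shNFIB lines.

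The upstream sequences of 6 members are shown here because 5 of them carry a CCAAT box, which most members with a searched window had whichever way they moved, and *Abca1*, among the members that rose most, has none. They are the 160 bases before the transcription start (RefSeq, GRCm38.p6), written 5′ to 3′ on the strand of the gene. The coordinates are chr13:119690191-119690350 (plus strand) for *Hmgcs1*, chr13:8885446-8885605 (plus) for *Idi1*, chr8:122443423-122443582 (minus) for *Mvd*, chr8:64733579-64733738 (minus) for *Msmo1*, chr13:45389582-45389741 (plus) for *Mylip* and chr4:53159896-53160055 (minus) for *Abca1*. The GENCODE M21 annotation places 2 of the starts further upstream. There *Msmo1* spans chr8:64718139-64733792, which holds all of the bases shown for it. *Idi1* spans chr13:8885501-8892451 there, which holds part of the bases shown for it. Capitals mark a CCAAT box, on either strand, or the letters TCACNCCAC of a sterol regulatory element, the site of SREBP.
Hmgcs1: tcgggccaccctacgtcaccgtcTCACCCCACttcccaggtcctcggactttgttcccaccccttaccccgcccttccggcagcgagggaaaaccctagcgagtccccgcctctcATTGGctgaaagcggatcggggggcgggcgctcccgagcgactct
Idi1: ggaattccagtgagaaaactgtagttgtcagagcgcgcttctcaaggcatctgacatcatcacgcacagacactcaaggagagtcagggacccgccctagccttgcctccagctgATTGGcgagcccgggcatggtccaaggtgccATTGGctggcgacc
Mvd: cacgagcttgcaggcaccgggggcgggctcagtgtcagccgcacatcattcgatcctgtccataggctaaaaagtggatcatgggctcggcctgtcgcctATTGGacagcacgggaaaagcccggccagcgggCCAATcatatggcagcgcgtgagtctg
Msmo1: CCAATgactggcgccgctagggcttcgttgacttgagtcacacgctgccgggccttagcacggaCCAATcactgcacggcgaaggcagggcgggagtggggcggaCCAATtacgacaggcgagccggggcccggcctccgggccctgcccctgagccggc
Mylip: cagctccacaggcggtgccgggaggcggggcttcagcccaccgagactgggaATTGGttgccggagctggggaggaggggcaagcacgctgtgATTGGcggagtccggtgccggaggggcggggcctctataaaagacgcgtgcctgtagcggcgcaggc
Abca1: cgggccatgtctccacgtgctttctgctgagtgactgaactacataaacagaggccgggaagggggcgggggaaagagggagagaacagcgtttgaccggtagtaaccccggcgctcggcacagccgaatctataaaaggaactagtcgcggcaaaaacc
Windows from 250 bases before to 50 bases after the start were found for 24 of the 30 members, 30 windows in all. They were searched on both strands for TCACNCCAC, for CCAAT, the box bound by NF-Y, and for the GC box GGGCGG, bound by SP1, and matches were counted whether or not they overlapped. CCAAT was present in 21 of the 30 windows (70.0%), against 37.4% of the 32851 windows of all genes and 38.6% of the 11324 windows of genes with an RPKM over 1. The members with CCAAT in a window came from every role, synthesis enzymes such as *Cyp51*, *Lss* and *Sc5d* as well as *Mylip*, *Lpcat3*, *Npc2* and *Soat1*, while *Abca1*, *Acat2* and *Scap* had none. GGGCGG was present in 26 windows (86.7%), against 35.7% of all windows and 63.6% of those of genes with an RPKM over 1. TCACNCCAC was present in 1 member window, that of *Hmgcs1* from position -137 to -129 relative to the start. It was present in 1.24% of all windows and in 1.07% of those of genes with an RPKM over 1. Only exact matches were counted, and sites with other letters or outside the windows were not searched. No window was found for *Fdps*, *Fdft1*, *Sqle*, *Stard4*, *Npc1* and *Abcg1*.

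In shControl cells 10 of the 18 synthesis enzymes fell from day 0 to day 5 and 3 of the 4 efflux and LXR target genes rose. Of the 30 members, 13 fell by more than 2-fold, against 8.56% of the 11513 genes whose RPKM passed 1 in any library, and 4 rose, against 13.0%. The median log2 change of the members was -0.80 and that of all these genes 0.03. The summed RPKM of the 18 synthesis enzymes went from 350 to 154. The adipocyte marker sum moved with this change, and its part in it was not tested. As these are bulk samples, fewer cells of a type and less RNA per cell cannot be told apart.

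Among the 7 enzymes that lead from acetyl-CoA to farnesyl diphosphate, 4 fell in shControl cells. *Fdps* (ENSMUSG00000059743.12, chr3:89093588-89101959), the farnesyl diphosphate synthase, had an RPKM of 24.6 at day 0 and 5.66 at day 5 in shControl, 11.3 and 2.10 in shKDM4D, 11.2 and 6.51 in shNFIB, and 22.6 and 5.35 in shMLL1 cells. Its level was thus lower at day 5 in every line, with the smallest distance between the days in shNFIB cells. The log2 change in shControl cells was -2.12 (95% interval -2.27 to -1.98). All intervals in the text cover counting error only, except those of the limma test of day given below. *Idi1*, the isomerase of isopentenyl diphosphate, had 43.1 and 11.9 in shControl, 25.8 and 6.63 in shKDM4D, 22.9 and 15.0 in shNFIB, and 50.9 and 8.13 in shMLL1 cells, with a log2 change in shControl cells of -1.86 (-1.97 to -1.75). It was the second most abundant member at day 0 in shControl cells, and its spread over the 8 libraries was 7.69-fold. *Mvd*, the decarboxylase of mevalonate diphosphate, had 7.35 and 2.76 in shControl, 3.08 and 1.07 in shKDM4D, 2.97 and 2.04 in shNFIB, and 7.98 and 3.09 in shMLL1 cells, and its log2 change in shControl cells was -1.42 (-1.75 to -1.09). *Mvk*, the mevalonate kinase, had 8.83 and 3.60 in shControl, 5.55 and 2.59 in shKDM4D, 5.51 and 5.36 in shNFIB, and 7.76 and 3.71 in shMLL1 cells, with a log2 change in shControl cells of -1.30 (-1.54 to -1.06). In shNFIB cells *Mvk* had nearly the same value on both days. *Hmgcs1*, the HMG-CoA synthase (ENSMUSG00000093930.2, chr13:119690379-119708260), and *Acat2*, the cytosolic thiolase that makes acetoacetyl-CoA, stayed within 2-fold in shControl cells, with log2 changes of -0.85 (-0.92 to -0.78) and -0.81 (-0.93 to -0.69). *Pmvk*, the phosphomevalonate kinase, was the member of the branch with a higher value at day 5, 8.33 against 11.2, and its log2 change was 0.43 (0.22 to 0.64).

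Of the 11 enzymes from farnesyl diphosphate through squalene to cholesterol, 6 fell in shControl cells. *Sqle* (ENSMUSG00000022351.14, chr15:59315077-59331192) encodes squalene epoxidase, a rate-limiting step of the sterol branch. Its RPKM was 20.7 and 2.59 in shControl, 14.6 and 2.82 in shKDM4D, 13.9 and 8.33 in shNFIB, and 21.4 and 4.91 in shMLL1 cells at day 0 and day 5. The log2 change of -2.99 (-3.18 to -2.82) in shControl cells was the largest decrease among the 30 members in that line. *Msmo1*, a methylsterol oxidase, had 16.2 and 4.13 in shControl, 8.70 and 1.96 in shKDM4D, 10.1 and 5.53 in shNFIB, and 19.1 and 3.29 in shMLL1 cells, with a log2 change in shControl cells of -1.97 (-2.11 to -1.83). *Cyp51*, the lanosterol demethylase, had 42.7 and 14.2 in shControl, 24.8 and 7.06 in shKDM4D, 30.7 and 21.3 in shNFIB, and 44.3 and 12.1 in shMLL1 cells, with a log2 change in shControl cells of -1.58 (-1.68 to -1.49). In both genes the 4 values at day 5 lay below the value of the same line at day 0. *Fdft1*, the squalene synthase, had 39.8 and 13.4 in shControl, 22.6 and 9.18 in shKDM4D, 20.9 and 19.6 in shNFIB, and 30.9 and 12.4 in shMLL1 cells, and its log2 change in shControl cells was -1.57 (-1.67 to -1.47). *Lss*, the lanosterol synthase, was the least abundant of the enzymes that fell, with 3.53 and 1.32 in shControl, 1.43 and 0.652 in shKDM4D, 1.39 and 0.86 in shNFIB, and 2.90 and 1.01 in shMLL1 cells, and a log2 change in shControl cells of -1.41 (-1.61 to -1.22). *Sc5d*, a sterol desaturase, had 8.13 and 3.40 in shControl, 6.70 and 3.10 in shKDM4D, 9.34 and 7.48 in shNFIB, and 8.80 and 3.46 in shMLL1 cells, with a log2 change in shControl cells of -1.26 (-1.44 to -1.08). The other 5 enzymes of the branch stayed within 2-fold in shControl cells: *Hsd17b7* (-0.79), the dehydrogenase *Nsdhl* (-0.70), the isomerase *Ebp* (-0.30), and the reductases *Tm7sf2* (-0.22) and *Dhcr7* (0.27), as log2 changes.

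The genes that control SREBP2 and that carry sterol within the cell did not move as one. *Srebf2* (ENSMUSG00000022463.8, chr15:82147181-82205379), which encodes SREBP2, had 31.1 and 8.12 in shControl, 20.9 and 9.59 in shKDM4D, 17.1 and 12.7 in shNFIB, and 28.6 and 11.5 in shMLL1 cells. It was highest in shControl cells at day 0 and lowest in shControl cells at day 5, and its log2 change in that line was -1.94 (-2.03 to -1.85). *Insig1*, which retains SCAP and is itself a target of SREBP2, had 29.8 and 13.3 in shControl, 13.8 and 6.87 in shKDM4D, 16.4 and 10.1 in shNFIB, and 23.1 and 8.22 in shMLL1 cells, with a log2 change in shControl cells of -1.16 (-1.28 to -1.04). The log2 changes of *Scap* (-0.41) and *Insig2* (0.42) stayed within 2-fold in shControl cells. *Stard4*, a cytosolic sterol carrier, had 10.5 and 2.54 in shControl, 7.47 and 2.22 in shKDM4D, 7.75 and 5.36 in shNFIB, and 13.6 and 3.61 in shMLL1 cells, and its log2 change in shControl cells was -2.05 (-2.24 to -1.87). The lysosomal carrier *Npc2* went the other way, with 35.9 and 82.4 in shControl, 38.6 and 71.6 in shKDM4D, 33.6 and 71.6 in shNFIB, and 22.3 and 93.5 in shMLL1 cells, a log2 change of 1.20 (1.15 to 1.25) in shControl cells. Its membrane partner *Npc1* had a log2 change of -0.11 with an interval that spanned 0 (-0.26 to 0.04).

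*Abca1*, *Abcg1* and *Mylip*, which are targets of LXR, had the largest increases among the 30 members in shControl cells. *Abca1* (ENSMUSG00000015243.4, chr4:53030787-53159895) encodes the transporter that loads cholesterol onto lipid-poor apolipoprotein, and its RPKM was 1.87 and 26.5 in shControl, 1.48 and 10.1 in shKDM4D, 1.43 and 6.46 in shNFIB, and 1.13 and 9.66 in shMLL1 cells. The 4 values at day 0 lay close together and all below the 4 values at day 5, among which shControl cells stood highest. The log2 change in shControl cells was 3.83 (3.70 to 3.96). *Abcg1* (ENSMUSG00000024030.7, chr17:31057675-31117988), the transporter that passes cholesterol to HDL, had 0.148 and 4.95 in shControl, 0.302 and 9.86 in shKDM4D, 0.0791 and 0.916 in shNFIB, and 0.367 and 4.35 in shMLL1 cells. At day 0 these levels rested on between 6 and 57 reads, counted as the smallest whole numbers in the proportions of the RPKM values, and the log2 change in shControl cells was 5.07 with a wide interval (4.35 to 5.89). *Mylip*, a ubiquitin ligase that marks lipoprotein receptors for degradation, had 9.44 and 36.7 in shControl, 9.50 and 26.8 in shKDM4D, 8.20 and 18.4 in shNFIB, and 6.55 and 25.5 in shMLL1 cells, a log2 change of 1.96 (1.84 to 2.08) in shControl cells. *Lpcat3*, a phospholipid acyltransferase, had a log2 change of 0.83 (0.66 to 1.01) there and *Soat1*, which esterifies cholesterol for storage, one of 0.42 (0.34 to 0.49).

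**Figure D1:**
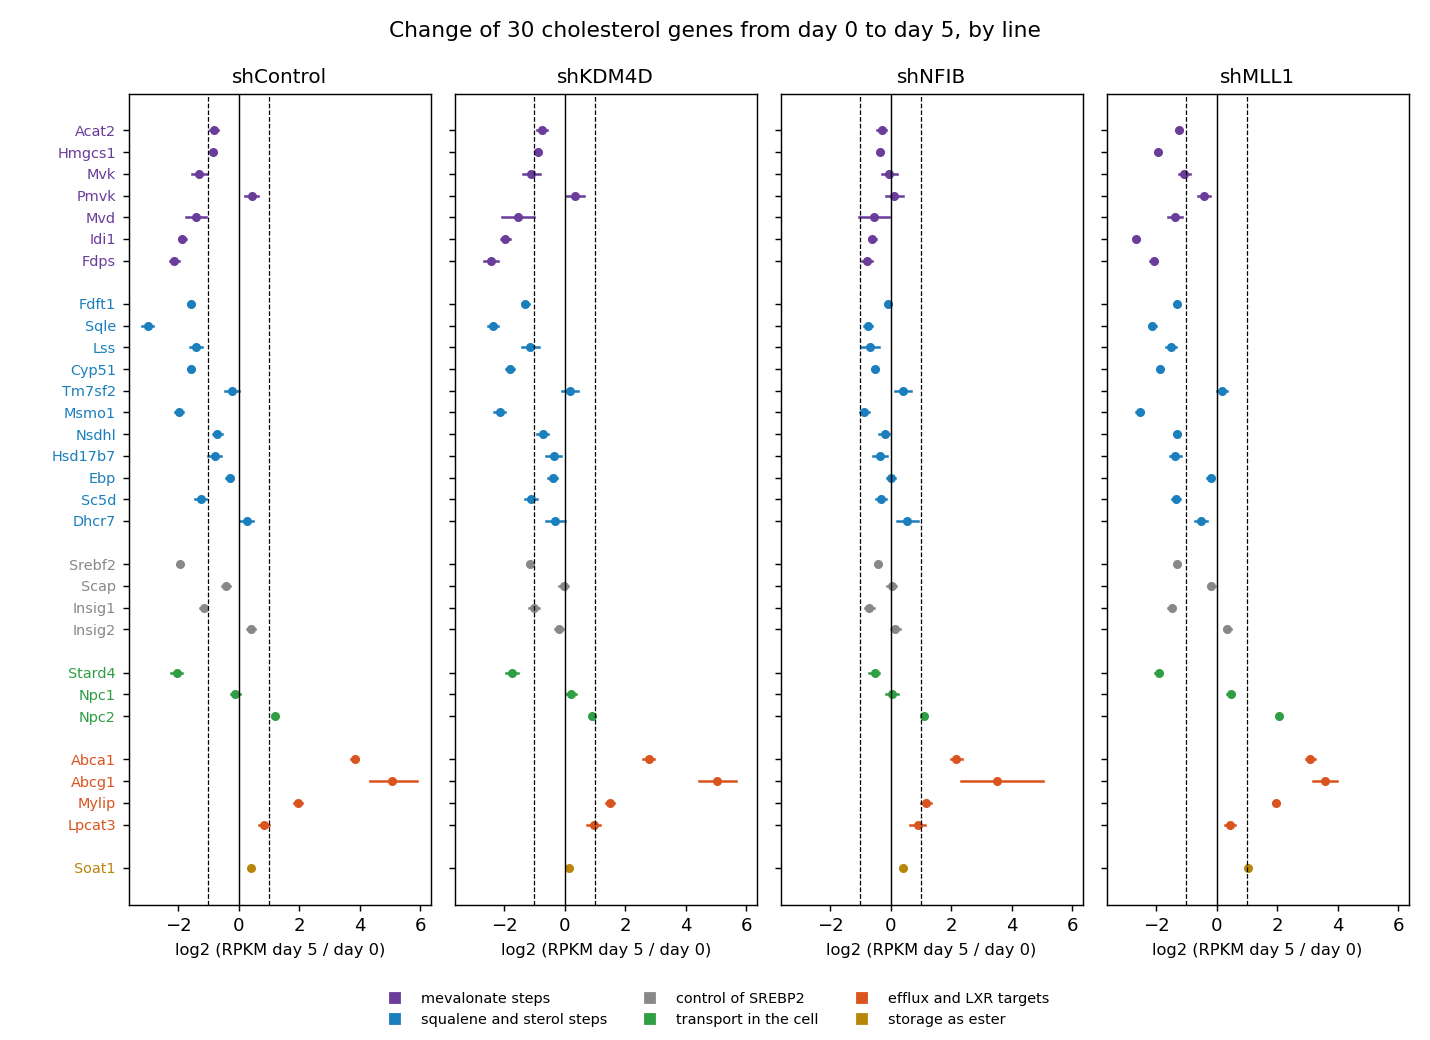
Log2 ratio of the RPKM at day 5 to that at day 0 (horizontal axis) for the 30 members, in 1 panel for each line, coloured by role; points are the ratios of 1 library to 1 library, bars the 95% intervals for counting error, and dashed lines mark 2-fold. Between 13 and 17 members lie left of the lower dashed line in shControl, shKDM4D and shMLL1 cells and 0 in shNFIB cells, while *Abca1*, *Abcg1* and *Mylip* lie right of the upper one in all 4 panels.

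Of the 18 synthesis enzymes, 10 fell in shKDM4D and 14 in shMLL1 cells, whose adipocyte marker sums at day 5 were 38.6 and 12.3 against 777 in shControl cells. The 13 members that fell in shControl cells all fell in both of these lines. Their median log2 change was -1.58 in shControl, -1.53 in shKDM4D and -1.52 in shMLL1 cells, which left 33.3%, 34.7% and 35.0% of the day 0 level. *Insig1* only just passed 2-fold in shKDM4D cells, at -1.01 (-1.18 to -0.85). It was at -0.99 there with median-of-ratios scaling and at -0.92 with 1 added to each RPKM. In shKDM4D cells 13 members fell, against 8.44% of all genes, and 3 rose, against 12.8%, with a median log2 change of -0.74 over the members. Its lowest changes were those of *Fdps* at -2.42 (-2.66 to -2.20), *Sqle* at -2.37 (-2.54 to -2.20) and *Msmo1* at -2.15 (-2.35 to -1.96). In shMLL1 cells 17 members fell, against 6.89% of all genes, and 5 rose, against 20.4%, and the median log2 change over the members was -1.28 where that of all genes was 0.17.

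The 4 further genes that fell in shMLL1 cells were *Hmgcs1*, *Hsd17b7*, *Nsdhl* and *Acat2*. *Hmgcs1* had an RPKM of 49.6 and 27.5 in shControl, 29.8 and 16.0 in shKDM4D, 30.5 and 24.1 in shNFIB, and 32.4 and 8.36 in shMLL1 cells. The level in shMLL1 cells at day 5 was the lowest of the 8, and the log2 change in that line was -1.95 (-2.04 to -1.87). *Acat2*, with 28.6 and 16.4 in shControl, 16.8 and 10.0 in shKDM4D, 18.1 and 14.8 in shNFIB, and 30.6 and 12.9 in shMLL1 cells, had a log2 change of -1.25 (-1.35 to -1.16) in shMLL1 cells. *Hsd17b7* had 4.50 and 2.61 in shControl, 2.95 and 2.30 in shKDM4D, 3.98 and 3.14 in shNFIB, and 4.20 and 1.63 in shMLL1 cells, with a log2 change of -1.36 (-1.55 to -1.17) in the last line. *Nsdhl* had 17.5 and 10.8 in shControl, 11.2 and 6.75 in shKDM4D, 13.2 and 11.4 in shNFIB, and 20.0 and 8.05 in shMLL1 cells, and changed by -1.31 (-1.42 to -1.20) there. *Hsd17b7*, like *Hmgcs1*, had its lowest value of the 8 libraries in shMLL1 cells at day 5, whereas *Acat2* and *Nsdhl* had theirs in shKDM4D cells at day 5. The lowest change in shMLL1 cells was that of *Idi1*, at -2.65 (-2.74 to -2.55). Among the genes that rose in shMLL1 cells, *Npc2* had the highest level of all members in any library, 93.5, with a log2 change of 2.07 (2.02 to 2.11), and *Soat1*, with 7.65 at day 0 and 15.8 at day 5, had a log2 change of 1.05 (0.98 to 1.11). The call of *Soat1* ended under other scales, at 0.96 with 1 added to each RPKM, 0.89 after quantile normalization and 0.96 with median-of-ratios scaling. At day 5 *Soat1* was between 13.4 and 15.8 in the 4 lines, and at day 0 between 10.9 and 12.1 in the other 3.

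In shNFIB cells none of the 30 members fell by more than 2-fold, against 4.96% of all genes, and 4 rose, against 12.6%. The median log2 change of the members was -0.15 and that of all genes 0.09. The 13 members that fell in shControl cells were all below 0 in shNFIB cells too, but each by less, with a median log2 change of -0.54, which left 68.6% of the day 0 level. These 13 were picked by their fall in shControl cells, which by itself favours smaller changes in other lines. Of them, 8 in shKDM4D and 7 in shMLL1 cells also changed by less than in shControl cells. The lowest changes in shNFIB cells were those of *Msmo1* at -0.87 (-1.02 to -0.72), *Fdps* at -0.78 (-0.95 to -0.61) and *Sqle* at -0.74 (-0.87 to -0.61). For *Mvk* (-0.04, interval -0.30 to 0.22) and *Fdft1* (-0.09, interval -0.20 to 0.01) a difference between the days was not detectable at this depth. The summed RPKM of the 18 synthesis enzymes was 227 at day 0 and 180 at day 5 in shNFIB cells, against 212 and 96.1 in shKDM4D and 335 and 115 in shMLL1 cells. *Abcg1*, *Abca1*, *Mylip* and *Npc2* rose in shNFIB cells, with log2 changes of 3.53 (2.33 to 5.04), 2.17 (1.98 to 2.37), 1.16 (1.01 to 1.32) and 1.09 (1.03 to 1.15). Across the 30 members the change in shNFIB cells ran along that in shControl cells with Pearson's r of 0.96 and a slope of 0.52. In shKDM4D cells r was 0.98 with a slope of 0.88 and in shMLL1 cells 0.94 with a slope of 0.87. These are descriptions over genes that share their libraries and are not independent.

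The change with day was then tested over the 4 lines, with limma on log2(RPKM + 0.1), line as a block and day as a term, and adjustment over all 11513 genes. The test leaves 3 residual degrees of freedom and sets the mean change against its spread between lines that carry different shRNAs. That spread was moderated, being drawn for each gene towards the spread of genes of similar level. Its intervals and p-values therefore do not rest on the gene's own spread alone. The test says nothing of a single line. At an adjusted p under 0.05, 17 of the 30 members were lower at day 5, against 21.0% of all genes, and 6 were higher, against 29.0%. The 17 were 14 of the 18 synthesis enzymes with *Srebf2*, *Insig1* and *Stard4*, and all of them were lower in 4 of 4 lines. The mean log2 change of *Sqle* was -2.03 (95% interval -2.84 to -1.21, adjusted p = 0.00449, limma), that of *Msmo1* -1.85 (-2.48 to -1.22, adjusted p = 0.00259) and that of *Srebf2* -1.19 (-1.75 to -0.64, adjusted p = 0.0073). The 6 that were higher in 4 of 4 lines were *Abcg1*, at 3.68 (2.76 to 4.61, adjusted p = 0.00117), *Abca1*, at 2.89 (2.26 to 3.51, adjusted p = 0.000828), *Mylip*, *Npc2*, *Lpcat3* and *Soat1*. *Lpcat3* passed here, at 0.77 (0.49 to 1.04, adjusted p = 0.00325), without passing 2-fold in any line. The 7 members that did not pass were *Pmvk*, *Tm7sf2*, *Ebp*, *Dhcr7*, *Scap*, *Insig2* and *Npc1*, with mean log2 changes from -0.22 to 0.19. With quantile normalization the members' counts were the same, while those of all genes went from 3337 higher and 2415 lower to 2575 and 3169. Without the filter on low values, 1 member was lower and 4 were higher.

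**Figure D2:**
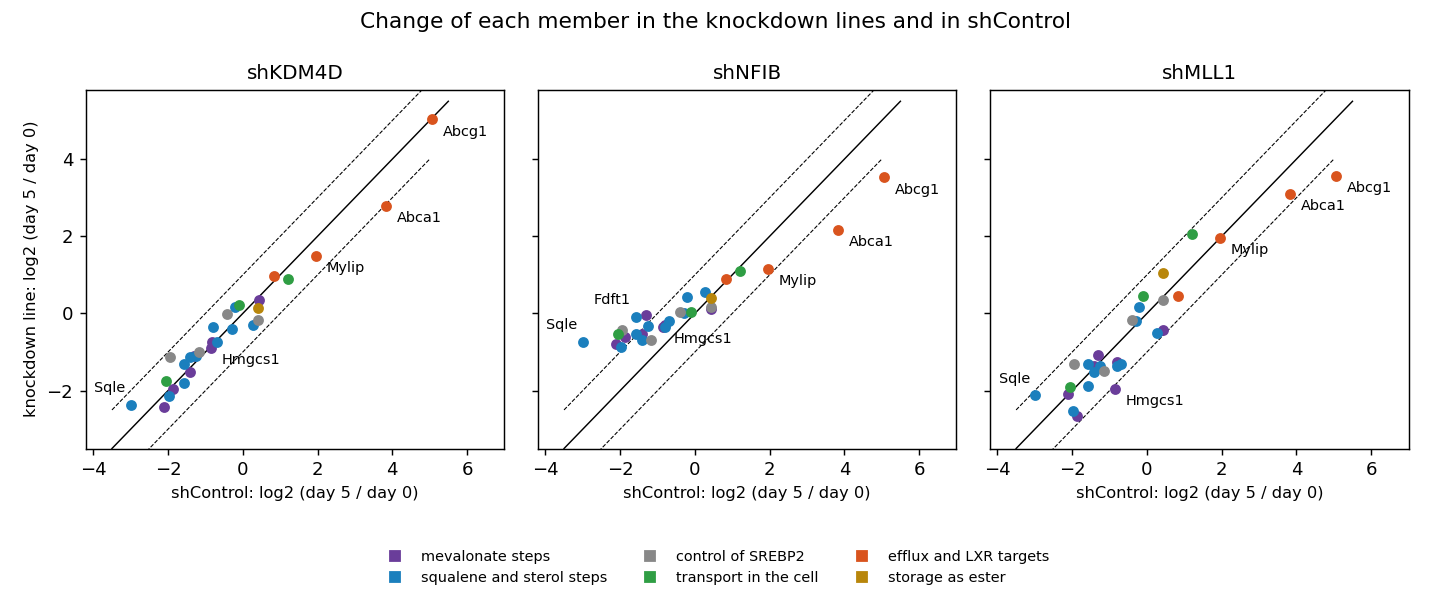
Log2 change from day 0 to day 5 in each knockdown line (vertical axis) against that in shControl cells (horizontal axis), 1 point for each of the 30 members, coloured by role; the solid line marks equal change and the dashed lines a difference of 2-fold. In shNFIB cells 9 members lie above the upper dashed line and *Abca1* and *Abcg1* below the lower one.

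**Figure D3:**
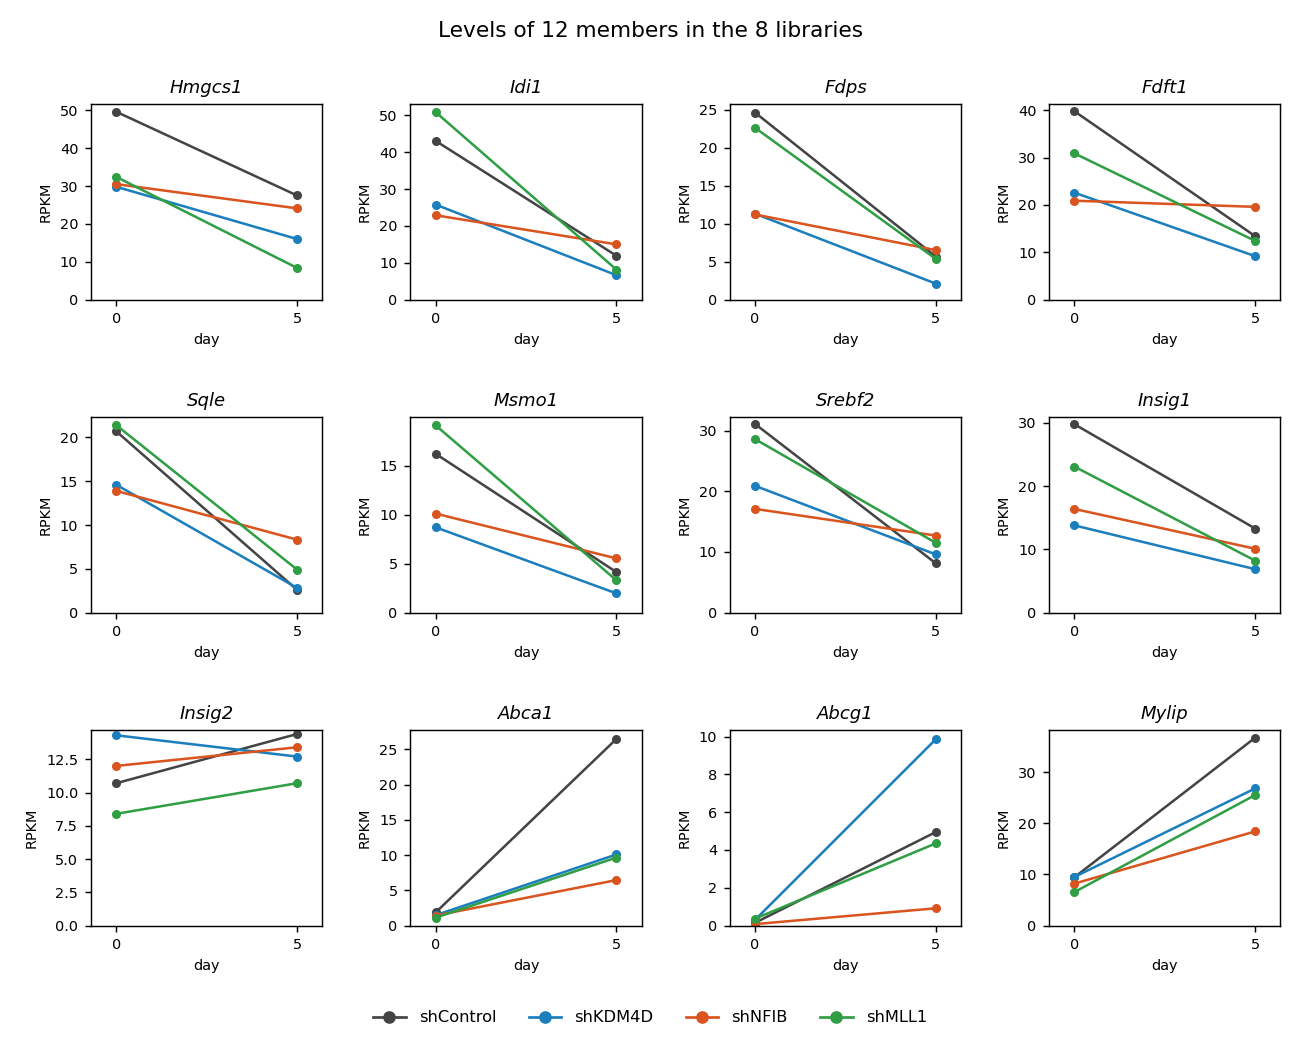
RPKM (vertical axis, from 0) of 12 members at day 0 and day 5 (horizontal axis) in the 4 lines, 1 library for each point. *Sqle* goes from 20.7 to 2.59 in shControl and from 13.9 to 8.33 in shNFIB cells, and *Abca1* reaches 26.5 in shControl cells at day 5 and at most 10.1 in the knockdown lines.

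Before induction the synthesis genes were already lower in shKDM4D and shNFIB cells than in shControl cells. At day 0, 4 members were more than 2-fold lower in shKDM4D cells (4.26% of all genes) and 1 higher (1.98%), and 4 were lower in shNFIB cells (6.05%) and 0 higher (2.95%). In shMLL1 cells 0 were lower (7.43%) and 1 was higher (1.67%). Few members passed 2-fold, but in shKDM4D and shNFIB cells the shift was broad. All 18 synthesis enzymes were below shControl cells in the shKDM4D line, 16 of 18 in the shNFIB line and 10 of 18 in the shMLL1 line. The median log2 ratio of the 18 was -0.71, -0.67 and -0.08 in the 3 lines, where that of all genes was -0.0, 0.03 and -0.07. *Thy1* at day 0 was 0.0171 and 0.0179 in the shKDM4D and shNFIB lines against 25.0 and 11.8 in shControl and shMLL1 cells, and what this difference between lines has to do with the levels of the enzymes was not tested. All 3 ratios of a day share the shControl library, so that a high value in that library lowers all of them.

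*Lss*, *Mvd* and *Fdps* were lower in both lines at day 0. The log2 ratio of *Lss* was -1.31 (-1.5 to -1.12) in shKDM4D and -1.34 (-1.54 to -1.15) in shNFIB cells, that of *Mvd* -1.25 (-1.57 to -0.94) and -1.31 (-1.64 to -0.99), and that of *Fdps* -1.12 (-1.23 to -1.02) and -1.14 (-1.25 to -1.03). *Insig1* was lower in shKDM4D cells, at -1.11 (-1.22 to -0.99), and stayed within 2-fold in shNFIB cells, at -0.86 (-0.97 to -0.75). *Dhcr7*, the reductase that gives cholesterol from its dehydro precursor, had an RPKM of 2.43 and 2.94 in shControl, 1.65 and 1.34 in shKDM4D, 1.21 and 1.77 in shNFIB, and 2.31 and 1.62 in shMLL1 cells. Its highest value was that of shControl cells at day 5 and its lowest that of shNFIB cells at day 0, where the log2 ratio was -1.01 (-1.31 to -0.72). *Srebf2* was lower by less than 2-fold in both lines, at -0.57 (-0.64 to -0.51) in shKDM4D and -0.86 (-0.93 to -0.79) in shNFIB cells, and was at -0.12 (-0.17 to -0.08) in shMLL1 cells. The 1 member that was higher, in shKDM4D and in shMLL1 cells, was *Abcg1*, with log2 ratios of 1.03 (0.06 to 2.04) and 1.31 (0.49 to 2.21) that rest on 24 and 57 reads against 16. Adding 0.1 to each RPKM brought both of these ratios within 2-fold. In shMLL1 cells the largest distances below shControl cells at day 0 were those of *Abca1* at -0.73 (-0.91 to -0.54), *Npc2* at -0.69 (-0.74 to -0.63) and *Hmgcs1* at -0.61 (-0.67 to -0.56).

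At day 5 the 3 lines differed from each other in their distance to shControl cells. In shKDM4D cells 7 members were lower (4.57% of all genes) and 0 higher (1.88%). The median log2 ratio of the 18 enzymes was -0.74, close to the -0.71 of day 0, and that of all genes was 0.01. The 7 were *Fdps* at -1.43 (-1.68 to -1.18), *Abca1* at -1.39 (-1.46 to -1.32), *Mvd* at -1.36 (-1.92 to -0.83), *Dhcr7* at -1.14 (-1.42 to -0.87), *Msmo1* at -1.08 (-1.30 to -0.86), *Lss* at -1.02 (-1.32 to -0.73) and *Cyp51* at -1.01 (-1.15 to -0.88). The intervals of all but *Fdps* and *Abca1* reached to within 2-fold. *Abcg1* lay on the other side, at 0.99 (0.82 to 1.17).

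In shNFIB cells at day 5, 3 members were higher than in shControl cells (5.54% of all genes) and 2 lower (5.67%). Of the 18 enzymes, 12 had a log2 ratio above 0, with a median of 0.24. The median log2 ratio of the 30 members was 0.09, the same as that of all genes. The higher genes were *Sqle* at 1.68 (1.48 to 1.89), *Sc5d* at 1.14 (0.94 to 1.34) and *Stard4* at 1.08 (0.86 to 1.30). The lower genes were the 2 transporters, *Abcg1* at -2.43 (-2.85 to -2.04) and *Abca1* at -2.04 (-2.14 to -1.94), and *Mylip* lay just inside 2-fold at -1.0 (-1.11 to -0.89). In shMLL1 cells 2 members were lower (4.02%) and 0 higher (5.25%). These were *Hmgcs1* at -1.72 (-1.81 to -1.62) and *Abca1* at -1.46 (-1.52 to -1.40). *Sqle* was the enzyme furthest above shControl cells in that line, at 0.92 (0.73 to 1.12), and *Dhcr7*, at -0.86 (-1.08 to -0.64), was below shControl cells in all 3 lines. *Abca1* was more than 2-fold below shControl cells in all 3 lines at day 5, and the adipocyte marker sum was lower in all 3 as well, its part in the *Abca1* level being not tested.

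**Figure D4:**
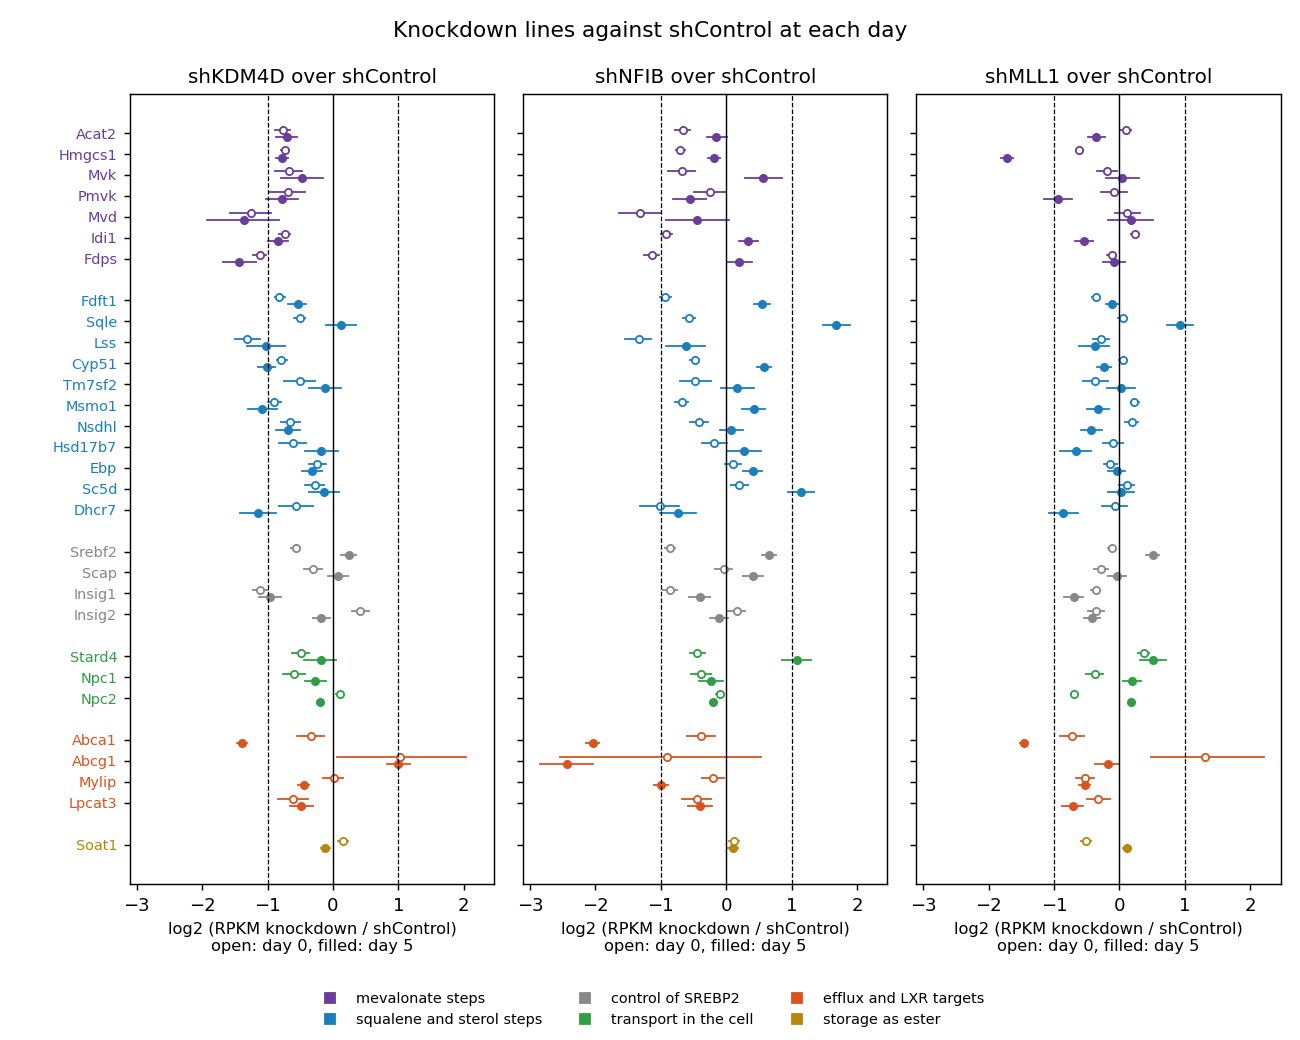
Log2 ratio of the RPKM of each knockdown line to that of shControl cells (horizontal axis) for the 30 members, at day 0 (open points) and day 5 (filled points), with 95% intervals for counting error and dashed lines at 2-fold, coloured by role. The 18 synthesis enzymes lie below 0 at day 0 in shKDM4D cells and 16 of them in shNFIB cells. At day 5 in shNFIB cells 12 of them lie above 0, where the median log2 ratio of all genes was 0.09.

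The difference between the log2 change of a knockdown line and that of shControl cells was then taken for each member, with an approximate interval from the read counts of the 4 libraries. All 3 lines are compared here with the same pair of shControl libraries. In shNFIB cells the difference was past 2-fold upward for 9 members (7.10% of all genes) and downward for 2 (4.12%), and its median over the members was 0.50, against 0.07 over all genes. The 9 were *Sqle* at 2.26 (2.04 to 2.48), *Stard4* at 1.52 (1.27 to 1.77), *Srebf2* at 1.51 (1.38 to 1.64), *Fdft1* at 1.48 (1.33 to 1.62), *Fdps* at 1.34 (1.12 to 1.56), *Mvk* at 1.25 (0.91 to 1.60), *Idi1* at 1.25 (1.09 to 1.41), *Msmo1* at 1.10 (0.90 to 1.31) and *Cyp51* at 1.06 (0.93 to 1.19). Each of these differences is the ratio to shControl cells at day 5 less that at day 0, and both parts carried it. For *Fdps* most came from day 0, where the ratio was -1.14, and little from day 5, where it was 0.20. For *Sqle* most came from day 5, with 1.68 against -0.57 at day 0. For *Srebf2* the ratio went from -0.86 to 0.65. The 2 members with a downward difference were *Abca1* at -1.66 (-1.89 to -1.43) and *Abcg1* at -1.53 (-2.94 to -0.12).

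In shKDM4D cells 0 members had a difference past 2-fold upward (2.84%) and 1 downward (3.25%), *Abca1* at -1.05 (-1.27 to -0.83). For the 18 enzymes the median difference in that line was -0.04, and *Sqle* had the highest at 0.63 (0.38 to 0.87). In shMLL1 cells the counts were 0 upward (9.88%) and 2 downward (2.88%), *Abcg1* at -1.5 (-2.32 to -0.68) and *Hmgcs1* at -1.10 (-1.21 to -1.0). *Srebf2* changed by less in all 3 knockdown lines than in shControl cells, with a difference of 0.81 (0.68 to 0.94) for shKDM4D and of 0.63 (0.52 to 0.74) for shMLL1 beside that of shNFIB above.

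The paired members of a function were unequal. *Insig1*, the INSIG whose gene follows SREBP2, exceeded *Insig2* 2.77-fold in RPKM in shControl cells at day 0 and was at 0.928 of it at day 5. In shMLL1 cells the ratio went from 2.75 to 0.766 and in shNFIB cells from 1.37 to 0.755, while in shKDM4D cells it was already 0.966 at day 0 and 0.541 at day 5. *Insig2* itself kept between 8.40 and 14.4 in the 8 libraries, so that most of the movement of the ratio was in *Insig1*. *Npc2* exceeded *Npc1* between 8.81-fold and 17.7-fold at day 0 and between 26.7-fold and 28.3-fold at day 5. *Abca1* exceeded *Abcg1* in all 8 libraries, by 12.6-fold and 5.36-fold in shControl, 4.89-fold and 1.03-fold in shKDM4D, 18.1-fold and 7.05-fold in shNFIB, and 3.07-fold and 2.22-fold in shMLL1 cells. The 2 transporters therefore stood at nearly the same level in shKDM4D cells at day 5, where *Abcg1* had its highest RPKM of the 8 libraries, 9.86.

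Of the 30 members, 23 passed 2-fold in at least 1 of the 10 comparisons of libraries, as did 39.8% of all genes, and 7 in none. The 7 were *Ebp*, with an RPKM from 13.6 to 22.6 in the 8 libraries, *Insig2*, *Lpcat3* from 3.68 to 9.99, *Npc1* from 2.19 to 3.49, *Pmvk* from 5.17 to 11.2, *Scap* from 4.41 to 6.03 and *Tm7sf2* from 2.09 to 2.98. *Scap*, the escort of SREBP2, had the narrowest spread of all members at 1.37-fold, and *Tm7sf2* the next at 1.43-fold, against 125-fold for *Abcg1* and 23.5-fold for *Abca1*.

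Of 34 further genes for the cleavage and degradation of SREBP, for LXR and its other targets, for uptake, transport and ester hydrolysis and for side branches, 32 passed an RPKM of 1 in any library. From day 0 to day 5, 4 of them rose and 3 fell in shControl, 4 rose and 5 fell in shKDM4D, 8 rose and 2 fell in shNFIB, and 11 rose and 2 fell in shMLL1 cells, at the shares of all genes given above for each line. The rises counted in shNFIB cells include *Nr1h3* and *Smpdl3a*, which were at 0 at day 0 and at only 0.201 and 0.0611 at day 5. The 8 genes of SREBP cleavage and degradation stayed within 2-fold in every comparison but for *Erlin1*, which had 10.7 at day 0 and 5.04 at day 5 in shControl cells. Of the 2 genes for LXR, *Nr1h2* was between 14.2 and 17.4 in the 8 libraries. *Nr1h3* was at most 0.061 at day 0 and reached 2.63 in shControl cells at day 5, where the shKDM4D, shNFIB and shMLL1 lines had 0.239, 0.201 and 0.396. *Srebf1*, the gene of SREBP1 and a target of LXR, was between 3.52 and 3.90 at day 0 in the 4 lines and at day 5 had 6.31 in shControl cells and 4.71, 4.27 and 4.63 in the shKDM4D, shNFIB and shMLL1 lines. *Pltp*, the phospholipid transfer protein and also an LXR target, rose in all 4 lines, from 23.2 to 46.5, from 14.1 to 46.0, from 18.8 to 58.3 and from 7.0 to 32.0. *Arl4c*, in the same list of LXR targets, went the other way in all 4 lines, from 5.19 to 1.78, from 8.17 to 1.62, from 15.6 to 2.94 and from 9.65 to 2.07. *Smpdl3a*, of the same list, was low and differed in direction between lines, rising from 0.345 to 1.95 in shControl cells and going from 0.0496 to 0.0224 in the shKDM4D line. Both were named after their values were seen. Compared with shControl cells at the same day, between 2 and 5 of the 32 were lower in each of the 6 comparisons, where the shares of all genes were 4.02% to 7.43%, and at most 1 was higher, where they were 1.67% to 5.54%.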

How the data were processed

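RNA-seq was carried out on 8 libraries of C3H10T1/2 cells (SMARTer stranded kit, Illumina sequencing), 1 for each of 4 lines and 2 days. CLC Genomics Workbench was used by the authors for mapping to GRCm38, and they deposited RPKM values for 41325 gene symbols, without counts. The members and gene lists were chosen with earlier results of these data known. The rule was to describe all 30 members, in full where past 2-fold, and up to 6 of 34 other pathway genes. *Arl4c* and *Smpdl3a* were added to these other genes after their values were seen, which went past the limit of 6. RPKM ratios were taken without a pseudocount, over the 11513 genes with RPKM over 1 in at least 1 library, and past 2-fold counted as called. Day was also tested over the 4 lines with limma 3.58.1 (R 4.3.3) on log2(RPKM + 0.1), with line as a block. Variances were moderated along a trend with level, and p-values were Benjamini-Hochberg adjusted over all genes. The test was added after the values were seen, and no other p-value was computed. The labels do not pair libraries beyond the line. Whole reads were recovered from RPKM and the exon length of GENCODE M21 (96.2% to 96.5% of values within 0.02 of a whole read), which gave exact 95% Clopper-Pearson intervals for ratios. For *Tm7sf2*, *Npc1* and *Abcg1*, not whole at that length, the smallest whole numbers in proportion were used, a choice made after the values were seen. The difference of changes, with a normal approximation on log counts, was also added then. Promoters came from RefSeq (GRCm38.p6). Pseudocounts of 0.1 and 1, quantile normalization, median-of-ratios scaling, no filter and a filter at RPKM over 2 were tried. The scripts, in Python 3.11.15 with numpy 2.4.6, pandas 2.3.3 and scipy 1.17.1, were tested on simulated data.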

Additional observations from a re-analysis of the deposited data

Results flagged for a closer look

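In 5 cases a member changed from day 0 to day 5 in the opposite direction in a knockdown line and in shControl cells, with counting intervals of both changes off 0. With 1 library per condition the difference was not tested, and each change was within 2-fold. In shKDM4D cells the log2 change of *Dhcr7* was -0.31 and that of *Insig2* -0.18, against 0.27 and 0.42 in shControl cells. In shNFIB cells *Tm7sf2* changed by 0.42, against -0.22. In shMLL1 cells *Pmvk* changed by -0.43, against 0.43, and *Dhcr7* by -0.51, against 0.27. The intervals of *Dhcr7* in shKDM4D cells (-0.62 to -0.0) and of *Tm7sf2* in shControl cells (-0.45 to -0.0) only just left out 0.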

How the results depend on the processing

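No change of a member called past 2-fold turned its direction in any alternative. The median difference of changes in shKDM4D cells, -0.03, was 0.02 with 0.1 added, 0.07 with 1 added and 0.02 after quantile normalization. The filters on low values changed no count of members past 2-fold, but without a filter the test of day over the 4 lines found 1 member lower in place of 17, with 41325 genes tested and 18 members lower at an unadjusted p under 0.05. The cause was not tested. Adding 1 to each RPKM, which draws low genes together, left 8 members lower at day 5 than at day 0 in shKDM4D cells, 2 lower in shNFIB cells at day 0, and 2 lower in shKDM4D and 1 higher in shNFIB cells at day 5, each against shControl cells. It also left 1 downward difference of changes in shMLL1 cells, 0 members higher at day 0 in shKDM4D and in shMLL1 cells, and a median change of -0.97 in shMLL1 cells. With 0.1 added, 0 members were higher at day 0 in shKDM4D and 0 in shMLL1 cells. After quantile normalization, the scaling of the study's methods, 1 member fell from day 0 to day 5 in shNFIB cells, 1 was higher in shKDM4D and 4 were lower in shMLL1 than in shControl cells at day 5, and 5 differences of changes were downward in shMLL1 cells, where the median change of the members was -1.39 and that of all genes went from 0.17 to -0.10. Median-of-ratios scaling brought that median of the members to -1.37. Without the pairing of the libraries by line, the test of day found 17 members lower and 6 higher, as with the replicate block, and leaving out each line in turn gave 14 to 17 lower and 5 to 6 higher. Of 97 calls of a member past 2-fold, 25 ended with 1 added to each RPKM, 6 with 0.1 added, 4 after quantile normalization and 3 with median-of-ratios scaling. Those ended by quantile normalization were *Soat1* in shMLL1 and *Npc2* in shNFIB cells over time, *Dhcr7* in shNFIB cells at day 0 and *Lss* in shKDM4D cells at day 5. Depth limits *Abcg1* at day 0 most, with 6 to 57 reads. Intervals other than those of the limma test cover counting error only, and the spread between cultures or clones is not known.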
